A study of Homo sapiens with 6 samples.

Results

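Endoplasmic reticulum (ER)-associated degradation (ERAD) genes around HERPUD1 were examined in MiaPaCa-2, an established human pancreatic ductal adenocarcinoma (PDAC) cell line, under low glucose. The group has 10 genes of the 60668 in the deposited table: HERPUD1, which was chosen by its very large rise in these same libraries, and 9 partners in the pathway, namely SEL1L, SYVN1, EDEM1, EDEM2, EDEM3, DERL1, DERL2, DERL3 and OS9. All 10 were found and all had a mean value above the minimum used for testing, DERL3 with only 5 to 10 reads per library. Because HERPUD1 was chosen by the contrast reported here, its values are given as a description without a test. The partners were listed for their function, by a choice made with earlier results of these data known.

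RNA-seq was performed on MiaPaCa-2 cells from ATCC kept for 48 h at 2.5 mM glucose (low glucose, 3 libraries) and on control cells at 25 mM glucose (3 libraries), described as independent biological replicates. The labels give low glucose as the treatment of the former, none for the latter, and no genotype or drug for either. The treatment text of the labels gives 2.5 mM for all 6 samples, and the control group was taken from the sample titles and the stated design. Reads on genes numbered 9741183, 10126218 and 10190154 in the control libraries. The low-glucose libraries were replicate 1 (10841656 reads), replicate 2 (10595408 reads) and a further library of 13733477 reads, and values per library are given in this order throughout. The labels name only the columns of low glucose replicates 1 and 2, and the other 4 columns were grouped by their names, which form a run of 3 for each condition. Of the markers of this line, KRT8, KRT18, KRT19 and VIM had at least 2001 reads in every library, EPCAM had at most 1 read, and CDKN2A, which is deleted in MiaPaCa-2, had 0. PTPRC and CPA1, markers of leukocytes and of acinar cells, had 0 reads, PECAM1 (endothelium) at most 3 and COL1A1 (fibroblasts) 3 to 14. KRT8, KRT18 and KRT19 had log2 fold changes of -1.01, -0.74 and -0.83 in low glucose and VIM of 0.42, and the part of such shifts in the values of the ERAD genes was not tested.

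ERAD removes misfolded proteins from the ER. Chaperones, mannosidases and lectins pick out a substrate, a ubiquitin ligase complex in the ER membrane passes it to the cytosol and marks it with ubiquitin, the ATPase p97 pulls it out, and the proteasome destroys it. The best known of these complexes is built on the ligase HRD1 (gene SYVN1), its adaptor SEL1L, the derlins as part of the channel, and HERPUD1 (HERP), a short-lived ER membrane protein with a ubiquitin-like domain. Several of these genes are classical targets of the unfolded protein response, the programme of transcription that follows from protein misfolding in the ER.

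Under low glucose, 6 of the 9 partners rose and 0 fell: SEL1L and SYVN1 by more than 3-fold, EDEM1 and DERL2 by close to 2-fold, and EDEM2 and OS9 by less. Over all 21101 genes tested, 14.7% rose and 16.2% fell, 30.9% in all (limma, adjusted p under 0.05). With 1 library left out, the share that rose ranged from 9.17% (without low glucose replicate 1) to 16.7%, and it was 9.54% without replicate 2 and 9.98% without the library of 13733477 reads, while the same 6 partners passed each time. The 3 partners that did not pass were EDEM3, DERL1 and DERL3. In 6 of the 9 partners, the same 6, all 3 low-glucose libraries exceeded all 3 control libraries, a pattern that 22.1% of all tested genes showed. The median log2 fold change was 0.59 over the 9 partners and 0.05 over all genes tested, on the scale of log2(normalized count + 1). In bulk RNA, fewer cells of a kind and less RNA per cell cannot be told apart. The normalized count is the number of reads on a gene divided by the authors' size factor of the library.

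**Figure D1:**
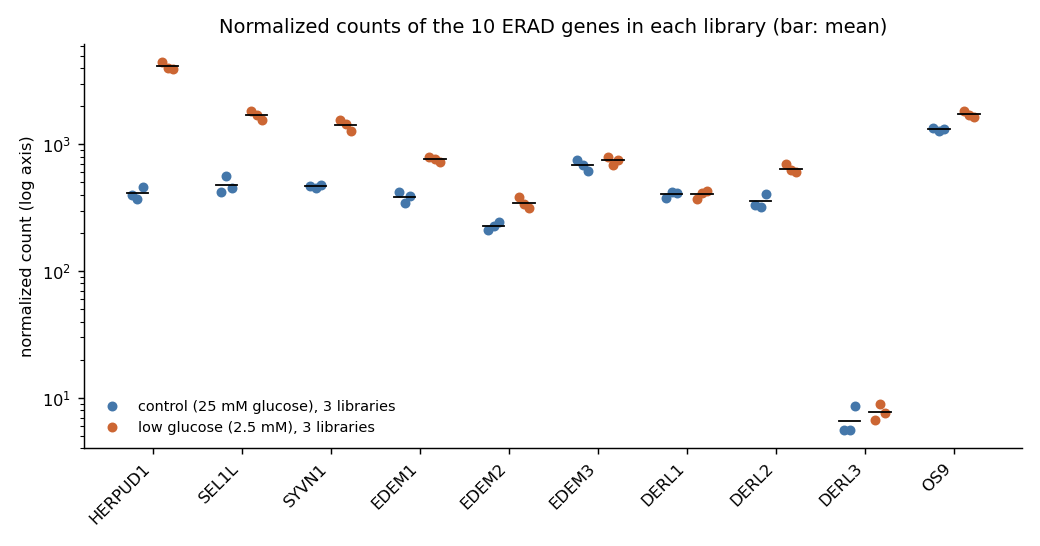
Normalized counts (log axis) of the 10 ERAD genes in the 3 control libraries at 25 mM glucose and the 3 low-glucose libraries at 2.5 mM, with bars for the means of 3. HERPUD1 lies at 370 to 458 in control libraries and at 3920 to 4419 under low glucose, whereas the values of EDEM3, DERL1 and DERL3 overlap between the conditions.

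HERPUD1 (ENSG00000051108.15) lies on chromosome 16 of hg38 from 56932142 to 56944864, plus strand. Its normalized counts were 399, 370 and 458 in the control libraries and 4419, 3994 and 3920 in the low-glucose libraries. The conditions were far apart, with the lowest low-glucose value 8.56 times the highest control value. The means were 409 ± 44.8 (SD, n = 3) and 4111 ± 270 (SD, n = 3), and the log2 difference was 3.33 (standard error, SE, of 0.0899), equal to 10.1-fold. Of the genes tested, 0.0663% had a larger log2 fold change, which places HERPUD1 15th. Its distance from the partners follows from the choice of HERPUD1 by this rise and is given as a description. The share of the 10 genes' reads that fell on HERPUD1 was 8.43%, 7.93% and 9.57% in control and 34.9%, 34.3% and 34.9% in low glucose. Together the 10 genes took up 413 to 439 reads per 1000000 reads on genes in control libraries and 1078 to 1216 under low glucose, and without HERPUD1 the sum over the 9 partners was 380 to 397 against 701 to 792.

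The genomic sequence before the start of HERPUD1 is shown because 2 motifs of ER and amino acid stress responses lie in it. The windows come from RefSeq (GRCh38.p14), whose starts can differ from those of GENCODE, and span 250 bases before to 50 bases after the start. Of the 10 genes, 8 were matched, and DERL1 and DERL3 had no entry. Both strands were searched for the ER stress response element ERSE (CCAAT and CCACG with 9 bases between them), ERSE-II (ATTGGNCCACG), the core of the unfolded protein response element (UPRE, TGACGTGG) and the C/EBP-ATF response element (CARE, TGATGNAA). ERSE and ERSE-II share the letters CCACG. Only exact matches to a full motif were counted and marked. The bases before the start are given from 5′ to 3′ on the strand of the gene, with matches in capitals, for HERPUD1 at chr16:56931892-56932141 (plus strand), SEL1L at chr14:81533854-81534003 (minus strand) and SYVN1 at chr11:65134520-65134669 (minus strand), the 3 genes with the largest fold changes of the group.
HERPUD1: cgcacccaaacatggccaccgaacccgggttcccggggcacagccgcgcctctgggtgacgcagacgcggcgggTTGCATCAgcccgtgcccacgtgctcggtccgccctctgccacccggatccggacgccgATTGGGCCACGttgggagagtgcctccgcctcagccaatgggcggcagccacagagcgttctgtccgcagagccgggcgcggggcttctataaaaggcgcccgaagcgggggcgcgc
SEL1L: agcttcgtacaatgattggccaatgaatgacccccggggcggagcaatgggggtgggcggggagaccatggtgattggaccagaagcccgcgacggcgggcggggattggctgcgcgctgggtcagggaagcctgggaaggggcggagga
SYVN1: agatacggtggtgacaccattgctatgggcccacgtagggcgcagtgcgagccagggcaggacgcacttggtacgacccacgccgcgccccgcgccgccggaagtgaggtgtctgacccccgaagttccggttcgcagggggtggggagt
In HERPUD1, an ERSE-II lies at positions -117 to -107 from the start and reads ATTGGGCCACG, and a CARE lies on the opposite strand at -176 to -169. Among 35116 promoter windows of this length, 0.0541% held an ERSE-II, 0.0769% an ERSE, 0.729% a UPRE core and 3.62% a CARE. No full match to any of these motifs was found in the windows of the other 7 matched genes. This says nothing of the factors that may bind there or elsewhere. A match is a description of the sequence, and binding was not measured in these data.

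SEL1L and SYVN1 encode the adaptor and the ligase of the HRD1 complex. SEL1L (ENSG00000071537.14, chromosome 14, 81471547 to 81533853, minus strand) had normalized counts of 419, 563 and 454 in control and 1832, 1685 and 1547 in low glucose. Its low-glucose values were all at least 2.75 times the highest control value. This amounts to 1.82 on the log2 scale (SE 0.106, adjusted p = 3.65e-08 by limma). SYVN1 (ENSG00000162298.18, chromosome 11, 65121780 to 65134532, minus strand) had 467, 449 and 476 in control, a narrow range, and 1553, 1444 and 1271 in low glucose. The log2 fold change amounted to 1.61 (SE 0.0880, adjusted p = 1.86e-08 by limma). The ratio of SEL1L to SYVN1 did not separate the conditions. It lay between -0.16 and 0.32 on the log2 scale in control libraries and between 0.22 and 0.28 under low glucose (difference 0.22, exact two-sided permutation p = 0.4). Of the exon bases of SYVN1, 130 are shared with FAU on the same strand and 356 with MRPL49 on the other. FAU had 1171 to 2477 reads and a log2 fold change of 0.30, and MRPL49 446 to 717 reads and -0.05. The part of such reads in the value of SYVN1 was not tested.

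**Figure D2:**
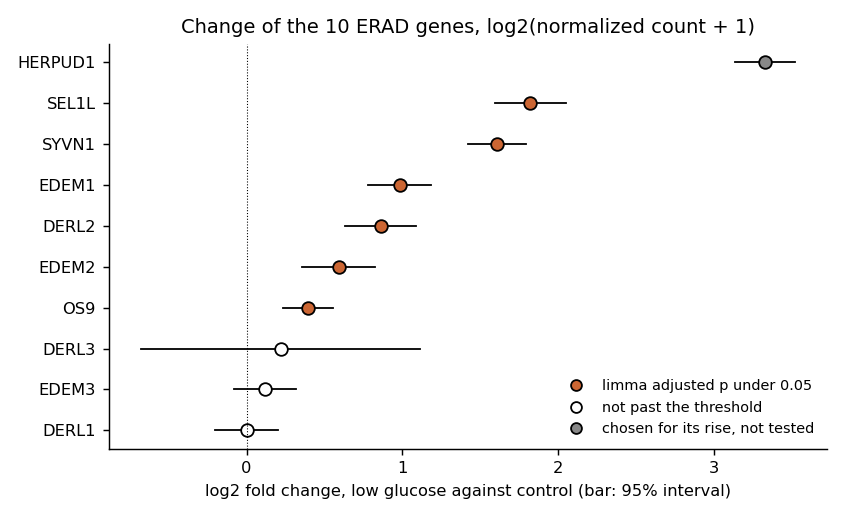
Log2 fold changes of the 10 ERAD genes, low glucose against control, on the scale of log2(normalized count + 1), with 95% confidence intervals from limma (3 libraries per condition). The genes spread from 3.33 for HERPUD1 (not tested) over 1.82 for SEL1L to 0.00 for DERL1. The intervals of DERL3, EDEM3 and DERL1 include 0. HERPUD1 was chosen by its rise in these libraries, so its interval is a description and not a test.

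The EDEM proteins are ER proteins related to mannosidases that promote trimming of the sugar chains of misfolded glycoproteins, which releases these from folding and sends them to degradation. Of the 3, EDEM1 and EDEM2 passed the test. EDEM1 (ENSG00000134109.11, chromosome 3, 5187646 to 5219958, plus strand) had normalized counts of 422, 343 and 388 in control and 795, 766 and 718 in low glucose, without overlap. Its log2 fold change was 0.98 (SE 0.0949, adjusted p = 3.53e-06 by limma). It shares 631 exon bases with the gene ENSG00000268509, which had 29 to 86 reads and a log2 fold change of 0.77. EDEM2 (ENSG00000088298.13, chromosome 20, 35115364 to 35147336, minus strand) had 212, 228 and 245 in control and 384, 340 and 314 in low glucose. It also separated completely, with a log2 fold change of 0.59 (SE 0.109, adjusted p = 0.000858 by limma). EDEM3 (ENSG00000116406.19, chromosome 1, 184690237 to 184754907, minus strand) had 753, 690 and 616 in control and 788, 691 and 756 in low glucose, which overlap. Its log2 fold change of 0.12 had a 95% interval of -0.08 to 0.32 and did not pass (adjusted p = 0.358 by limma), so that a rise above 1.25-fold lay outside the interval.

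The ratios within a library put the EDEM genes side by side independently of scaling. The log2 ratio of EDEM1 to EDEM3 averaged -0.84 ± 0.17 (SD, n = 3) in control and 0.03 ± 0.111 in low glucose, a difference of 0.86 without overlap. EDEM1 thus went from a lower normalized count than EDEM3 to about the same count. The ratio of EDEM1 to EDEM2 differed by 0.39 and that of EDEM2 to EDEM3 by 0.47, both without overlap, but with gaps between the conditions of only 0.06. Each of these 3 comparisons gave an exact two-sided permutation p of 0.1, the smallest that 3 libraries against 3 allow, and 0.14 when adjusted over the 7 pairs compared here. Per length of merged exons, EDEM3 made up 15.0% to 18.8% of the family's summed level in control libraries and 11.2% to 13.0% under low glucose. EDEM1 made up 24.3% to 29.0% and 32.4% to 34.3%. With the longest coding transcript as the length, the mean share of EDEM3 was 35.3% in control and 26.2% in low glucose, because its merged exons span 18576 bases against 6837 for that transcript.

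Derlins are membrane proteins related to rhomboid proteases without protease activity, and they help to move substrates across the ER membrane. Of the 3, only DERL2 passed the test. DERL2 (ENSG00000072849.11, chromosome 17, 5471254 to 5486811, minus strand) had normalized counts of 333, 320 and 409 in control and 695, 622 and 606 in low glucose, without overlap. The log2 fold change was 0.86 (SE 0.106, adjusted p = 2.89e-05 by limma). DERL2 shares 301 exon bases with MIS12 on the other strand, which had 176 to 440 reads and a log2 fold change of 0.77 (adjusted p = 4.17e-05 by limma), and the libraries were made with a strand-specific kit. Whether the counting used the strand is not given, and the part of such reads in the value of DERL2 was not tested. DERL1 (ENSG00000136986.10, chromosome 8, 123013170 to 123042302, minus strand) had 377, 419 and 415 in control and 372, 413 and 427 in low glucose, which overlap. Its log2 fold change was 0.00 with a 95% interval of -0.20 to 0.20 (adjusted p = 0.994 by limma), which leaves room for a change of up to 1.15-fold in either direction. It shares 333 exon bases with TBC1D31 (174 to 285 reads) and 115 with ENSG00000253607 (19 to 39 reads).

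DERL3 (ENSG00000099958.14, chromosome 22, 23834503 to 23839128, minus strand) was barely detected, with 5, 5 and 8 reads in control and 7, 9 and 10 in low glucose. These amount to normalized counts of 5.61, 5.57 and 8.56 against 6.73, 8.89 and 7.58, which overlap. The log2 fold change of 0.22 had a 95% interval equal to 0.626-fold to 2.17-fold (adjusted p = 0.735 by limma). A change of the size seen in DERL2 was thus not detectable with so few reads. Of the exon bases of DERL3, 77.0% are shared with SMARCB1 on the other strand, which had 1609 to 2347 reads in these libraries. How reads in shared bases were counted is not given, and the part of this overlap in the value of DERL3 was not tested.

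The ratio of DERL1 to DERL2 separated the conditions. The log2 ratio of DERL1 to DERL2 was 0.18, 0.39 and 0.02 in control and -0.90, -0.59 and -0.50 in low glucose, a difference of -0.86 without overlap (exact two-sided permutation p = 0.1, adjusted 0.14). DERL1 therefore had the higher normalized count of the pair in control and DERL2 in low glucose. The ratio of DERL2 to DERL3 differed by 0.64 (exact permutation p = 0.1, adjusted 0.14), and that of DERL1 to DERL3 by -0.22 with overlap (exact permutation p = 0.3, adjusted 0.35). Per length of merged exons, DERL2 made up 44.8% to 50.8% of the family's summed level in control libraries and 59.9% to 66.3% under low glucose. DERL1 made up 47.4% to 53.9% and 32.6% to 38.8%, respectively, and DERL3 at most 1.79% in any library.

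**Figure D3:**
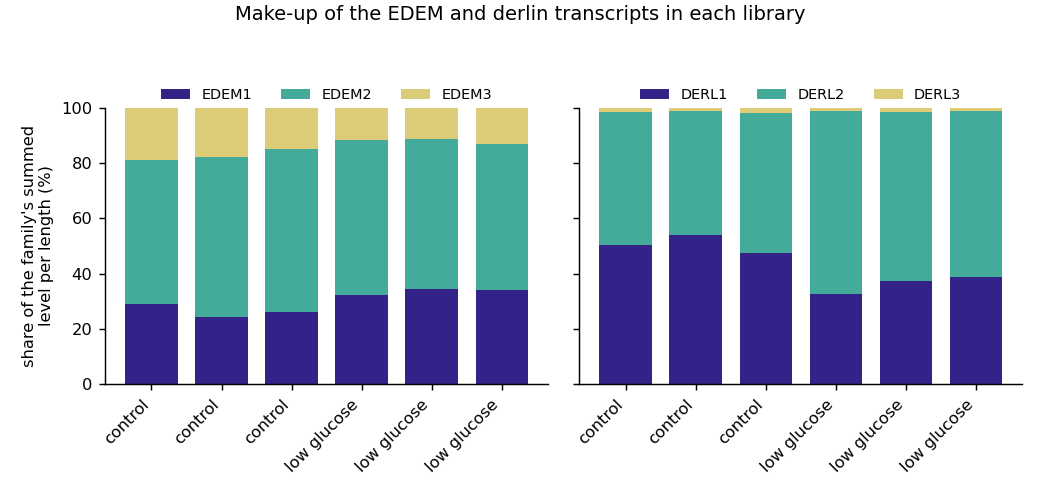
Share (%) of each gene in the summed level per length (RPKM over merged exons) of the EDEM genes (left) and the derlins (right), with 1 bar for each of the 6 libraries. EDEM3 takes 15.0% to 18.8% in control libraries against 11.2% to 13.0% under low glucose, and DERL2 44.8% to 50.8% in control against 59.9% to 66.3%.

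OS9 encodes an ER lectin that recognizes trimmed sugar chains and hands the glycoprotein to SEL1L. OS9 (ENSG00000135506.16, chromosome 12, 57693841 to 57728342, plus strand) had normalized counts of 1346, 1275 and 1317 in control and 1835, 1696 and 1650 in low glucose. All 3 low-glucose values were above the control values, by at least 1.23-fold. The log2 fold change was 0.39 (SE 0.0752, adjusted p = 0.00112 by limma), the smallest change of the partners that passed. The level of OS9 per length was 2.49 to 3.53 times that of SEL1L in control libraries and 1.10 to 1.17 times under low glucose when merged exons gave the length, but 6.04 to 8.56 times and 2.67 to 2.84 times with the longest coding transcript. OS9 shares exon bases with AGAP2-AS1 on the same strand (1378 bases, 53 to 132 reads) and with AGAP2 on the other (744 bases, 58 to 156 reads), against 1144 to 2177 reads on OS9. It also shares 699 bases with the lncRNA ENSG00000257342 on the other strand, which had 369 to 663 reads and a log2 fold change of 0.29. AGAP2 had a log2 fold change of 0.59 (adjusted p = 0.0165 by limma) and AGAP2-AS1 of 0.39 (adjusted p = 0.174 by limma), beside 0.39 for OS9. Whether the counting used the strand is not given, and the part of such reads in the value of OS9 was not tested.

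Levels of different genes were compared per length, as RPKM, the reads per kilobase of merged exons and per 1000000 reads on genes. By this measure, OS9 in control was the highest of the group at 13.7 ± 0.619 (SD, n = 3) RPKM, followed by EDEM2 at 11.0 ± 0.842, and then SYVN1 (7.66 ± 0.37) and HERPUD1 (7.33 ± 0.915), whose ranges overlapped. The levels of DERL1 (5.26), EDEM1 (5.18), DERL2 (5.03) and SEL1L (4.53) followed, each overlapping with the next, and EDEM3 (3.35) and DERL3 (0.157) were apart below them. In low glucose, HERPUD1 came first at 77.8 ± 5.11 RPKM, ahead of SYVN1 (24.8 ± 2.44), OS9 (19.0 ± 1.06), EDEM2 (17.6 ± 1.79) and SEL1L (16.9 ± 1.41). Of these neighbours, OS9 and EDEM2, and EDEM2 and SEL1L, did not differ beyond their ranges. EDEM1 (10.8) and DERL2 (9.62) overlapped, followed by DERL1 (5.57), EDEM3 (3.85) and DERL3 (0.195). HERPUD1 thus stood at place 4 in control and place 1 in low glucose, and its level was on average 0.955 times that of SYVN1 in control and 3.15 times in low glucose. With the longest coding transcript as the length, the order of several genes differed. In control, OS9 (40.1 RPKM) was followed by SYVN1 (13.4), HERPUD1 (13.0), DERL1 (11.4), EDEM2 (11.0), EDEM3 (9.10), DERL2 (7.70), EDEM1 (5.71), SEL1L (5.47) and DERL3 (0.192), so that EDEM2 moved from place 2 to 5 and EDEM3 from 9 to 6. In low glucose, HERPUD1 (138) stayed first, OS9 (55.7) came before SYVN1 (43.4), and SEL1L (20.4) and EDEM2 (17.6) followed. The places of EDEM2 and EDEM3 in control, and that of OS9 in low glucose, thus depend on the length used. OS9 was first in control with either length, and EDEM3 at place 9 in low glucose. The length of OS9 is 2970 bases for this transcript against 8692 in merged exons.

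**Figure D4:**
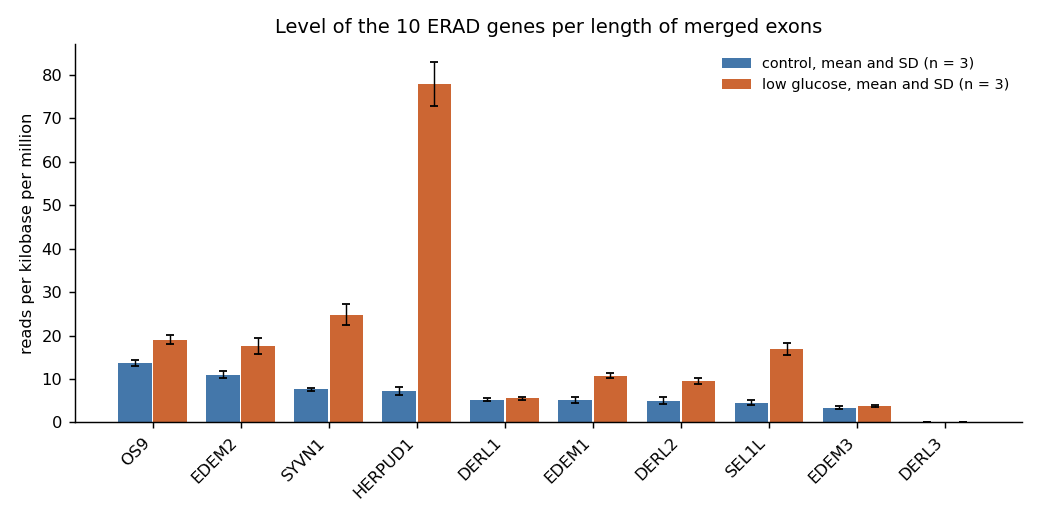
Level per length (RPKM over merged exons, linear axis from 0) of the 10 ERAD genes, ordered by their level in control, with bars for the mean and error bars for the SD of 3 libraries. HERPUD1 goes from 7.33 in control to 77.8 in low glucose, and OS9, the highest in control at 13.7, reaches 19.0.

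The low-glucose libraries differed from each other in the same order for every gene of the group that was higher in low glucose. In HERPUD1, SEL1L, SYVN1, EDEM1, EDEM2, DERL2 and OS9, replicate 1 had the highest normalized count, replicate 2 was between and the library of 13733477 reads had the lowest. Of all genes tested, 16.3% had this order, and of the 3111 that rose, 23.9%. None of EDEM3, DERL1 and DERL3 had it. The library with the lowest values is also the deepest, and the part of depth in this order was not tested.

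Other genes of the pathway were taken from 4 lists with 56 genes in all, of which all 56 were tested. Of these, 15 rose (26.8%) and 18 fell (32.1%), with a median log2 fold change of -0.04. Over all genes tested, 14.7% rose and 16.2% fell. With scaling by library size the split was 18 higher and 13 lower (all genes: 3935 and 2647, against 3111 and 3417 with the authors' factors), and with quantile normalization 20 and 12 (all genes: 2900 and 3125). The counts per list are given in the order of the pathway, and they were not tested against each other.

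Among 8 genes for recognition, trimming and reduction of substrates, 7 rose and 0 fell, with a median log2 fold change of 1.01. The share that rose was 87.5%, against 14.7% over all genes tested. It was 75% without a variance trend, where 9.95% of all genes rose. It was also 75% without the control library of 9741183 reads (all genes: 11.8%). The same share rose without low glucose replicate 1 or without the library of 13733477 reads (all genes: 9.17% and 9.98%). DNAJB9, a BiP cochaperone, rose by 2.76 on the log2 scale (SE 0.122, adjusted p = 4.24e-09 by limma), SDF2L1, another BiP-associated protein, by 2.52 (SE 0.136) and HSPA5, which encodes BiP, by 1.66 (SE 0.0864). ERLEC1, the second lectin of the HRD1 complex beside OS9 and named after its values were seen, rose by 0.72 (SE 0.0899, adjusted p = 3.35e-05 by limma). MAN1B1, an ER mannosidase also named after its values were seen, was the gene that did not pass, with a log2 fold change of 0.06 (adjusted p = 0.661 by limma). It passed with quantile normalization, the only one of the 15 alternatives in which it did. HSP90B1 (1.13), DNAJC10 (0.88) and TXNDC11 (0.39), also named after their values were seen, complete the genes that rose. The call of TXNDC11 was kept in 11 of 15 alternatives.

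Among 12 further genes of the HRD1 complex and its ubiquitin-conjugating (E2) enzymes, 4 rose and 4 fell, with a median of 0.00. This was 33.3% in each direction, against 14.7% higher and 16.2% lower over all genes tested. Only 2 (16.7%) rose without low glucose replicate 1 or without a trend in the variance model, where 9.17% and 9.95% of all genes rose. The 4 that rose in the main fit were SELENOS (0.92, SE 0.110), which encodes a membrane selenoprotein that recruits p97, SELENOK (0.80, SE 0.190), HERPUD2 (0.42, SE 0.121), the paralogue of HERPUD1, and UBE2J1 (0.38, SE 0.0773), an E2 enzyme of the ER membrane. HERPUD2 had a mean normalized count of 349 in control and 463 in low glucose, and its call was kept in 11 of 15 alternatives. That of SELENOK was kept in 13, with log2 fold changes of 0.51 to 1.02. FAM8A1, which helps to assemble the HRD1 complex, fell by 0.57 on the log2 scale (SE 0.115, adjusted p = 0.00173 by limma). The E2 enzymes UBE2G1 (-0.41), UBE2J2 (-0.37) and UBE2K (-0.35) fell as well, with limma adjusted p-values of 0.000968 to 0.00408. UBE2J1 and UBE2K were named after their values were seen, to give these 8 genes in full.

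Of 14 other ER membrane ubiquitin ligases and scaffolds, 2 rose, 2 fell and 10 did not pass, with a median of 0.02. The called genes made up 14.3% in each direction, close to the 14.7% that rose and 16.2% that fell over all genes tested. RNF185 had a log2 fold change of 0.46 and RNF5, its close relative, of 0.32 (adjusted p of 0.00585 and 0.0344, respectively, by limma). RNF145, a ligase known for degrading the sterol-synthesis enzyme HMG-CoA reductase, had one of -0.80 (SE 0.0921, adjusted p = 1.77e-05 by limma), and ERLIN1, a scaffold protein, of -0.24 (adjusted p = 0.0362). The calls of RNF5 and ERLIN1 were kept in 9 and 7 of 15 alternatives, respectively. The number of this list that rose was 0 without a variance trend, 1 without any single low-glucose library, and 4 without the control library of 10190154 reads, where 3 fell. Over all genes tested, 9.95% rose without a variance trend and 9.17% to 9.98% without a low-glucose library. Without that control library, 16.7% of all genes tested rose and 17.4% fell.

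Of 22 genes for p97 extraction and delivery to the proteasome, 2 rose and 12 fell, with a median log2 fold change of -0.27. The list thus had 9.09% higher and 54.5% lower, against 14.7% and 16.2% over all genes tested. NPLOC4, a substrate-binding cofactor of p97, fell by 0.55 (SE 0.0861, adjusted p = 0.000224 by limma), FAF2, which anchors p97 at the ER membrane, by 0.55 (SE 0.0726) and NSFL1C, another p97 cofactor, by 0.54 (SE 0.0830). VCP, which encodes p97 itself and was named after its values were seen, had a mean normalized count of 4934 in control and 3716 in low glucose, and fell by 0.41 (SE 0.0810, adjusted p = 0.00158 by limma). USP25, a deubiquitinating enzyme, rose by 0.66 and GET4, part of the BAG6 complex, by 0.55. The number of genes of this list that fell depended on the fit: 8 with library-size scaling, 7 with quantile normalization, 4 without a trend in the variance model, 7 without low glucose replicate 1 and 8 without the library of 13733477 reads, but 15 without the control library of 10190154 reads. In that order, the list's shares were 36.4%, 31.8%, 18.2%, 31.8%, 36.4% and 68.2%. Over all genes tested, the share that fell moved as well, to 12.5%, 14.8%, 9.44%, 11.3%, 12.4% and 17.4% in these fits. NPLOC4, FAF2 and NSFL1C passed in all 15 alternatives and VCP in 14.

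**Figure D5:**
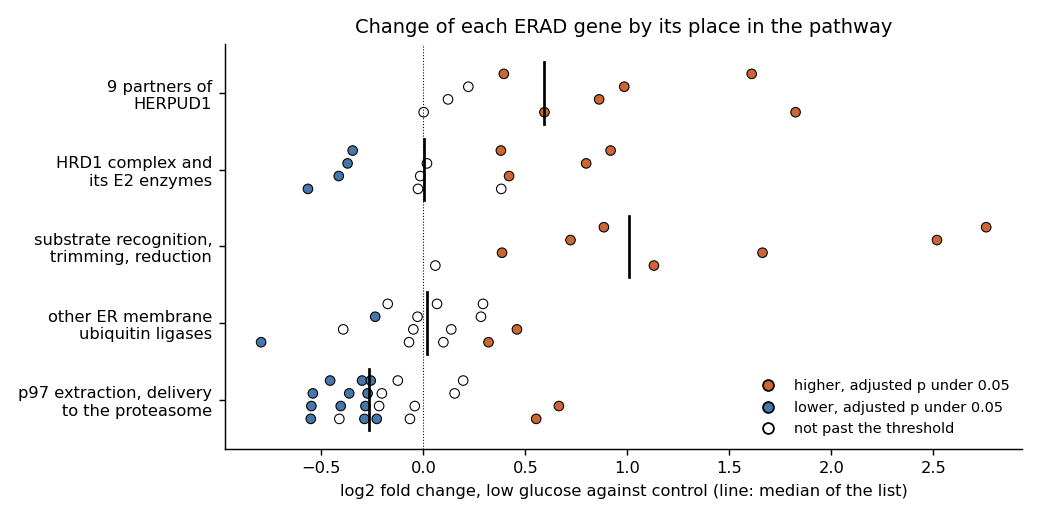
Log2 fold change, low glucose against control, of the 9 partners of HERPUD1 and of 56 further ERAD genes in 4 lists, with 1 point per gene, filled where limma's adjusted p was under 0.05, and a line at the median of each list. The medians run from 1.01 for recognition, trimming and reduction to -0.27 for p97 extraction and delivery, and 0.59 is the median of the partners.

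The genes whose profile over the 6 libraries was closest to that of HERPUD1 were RPS6KA2, a ribosomal S6 kinase, WIPI1, an autophagy protein, INHBE, an activin subunit, DNAJB9 and DDIT3, the stress-induced transcription factor CHOP. Likeness was measured, as a description, by the root mean square difference in log2(normalized count + 1) after each gene was centred on its control mean, over 10148 other genes with a mean of at least 100 over all 6 libraries. RPS6KA2 and INHBE, with control means of 33.3 and 20.6, passed this minimum only through the low-glucose libraries, so the filter partly sets which genes are named, while the control means of the other 3 were above 100. The root mean square difference was 0.249 for RPS6KA2 and 0.401 to 0.425 for the other 4. Because each gene was centred on its control mean, this measure mostly reflects the size of the log2 fold change, by which HERPUD1 was chosen. The 5 genes had log2 fold changes of 2.76 to 3.29, against 3.33 for HERPUD1, so their likeness is largely a like rise. INHBE had 13.5, 31.2 and 17.1 in control and 219, 201 and 177 in low glucose, far fewer reads than HERPUD1, and exon overlaps of these 5 genes with others were not examined here. Among the partners, SEL1L (1.08) came at place 31 and SYVN1 (1.22) at place 46, followed by EDEM1 at place 233, whereas DERL1 (2.36) was at place 4234. These places follow the order of the partners' log2 fold changes.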

How the data were processed

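RNA-seq of 6 libraries was analysed from 1 table. Per the labels and the methods, reads were trimmed with Trim Galore and mapped to hg38 with STAR (2.7.0e), and the conditions were compared with DESeq2. The libraries were made with a strand-specific kit. RSEM, which estimates counts, is among the software the study lists, but which tool counted this table, its strand setting and the annotation are not given in the sources used here, so the whole numbers may be reads or rounded estimates. The deposited signal is on a count scale: the authors divided the reads of each gene by a size factor, 1 for each library. Dividing by the value of 1 read gave whole numbers for 100% of the values (tolerance 0.01 reads), called reads here, and median-of-ratios factors recomputed over 17906 genes matched the deposited scaling. Library totals were 9741183 to 13733477 reads, and genes with few reads, such as DERL3, are limited by counting error.

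The test used log2(value + 1) of 21101 genes whose mean reached 1, with limma 3.58.1 in R 4.3.3 (lmFit, eBayes with trend), two-sided, with Benjamini-Hochberg adjustment over all of these genes and a threshold of 0.05. The pseudocount understates the change of low genes. Ratios of 2 members within a library were compared with exact permutation tests, which with 3 against 3 cannot give p below 0.1. Symbols, exons and coordinates come from GENCODE v44 on hg38 (99.4% of identifiers matched) and promoter windows from RefSeq. The alternatives were scaling by library size, TMM or quantiles, no filter, a mean of at least 10, a pseudocount of 0.1, no variance trend, DESeq2 1.42.0, edgeR 4.0.16 and each library left out. The scripts were tested on simulated data. Replicates differed by more than sampling noise. The chi-square per gene was 4.63 to 18.9 between control libraries and 1.90 to 2.89 between low-glucose libraries. The values of 8.74 and 18.9 both involved the control library of 10126218 reads.

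Members, lists and tests were chosen with earlier results of these data known. The genes named are the 10 members, the 3 with the largest change in each direction among the called genes of each list, genes whose exons overlap those of a member (MIR6751, over SYVN1, had 0 reads), and the 5 with the profile closest to HERPUD1. Names outside this rule are said to be chosen after their values were seen. Figures were made with matplotlib 3.10.9.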

Additional observations from a re-analysis of the deposited data

How the results depend on the processing

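HERPUD1 stayed between 3.26 and 3.46 on the log2 scale over 15 alternatives, and SEL1L, SYVN1, EDEM1, DERL2, EDEM2 and OS9 each passed in all 15, with a largest adjusted p of 0.036 (OS9). EDEM3 passed in none (lowest adjusted p 0.0738), and neither did DERL1 or DERL3. DERL3 was left out by the minimum of 10 and by edgeR's filter. DERL1 lay at 0.00 and changed sign with a library left out, between -0.048 and 0.059, and DERL3 was at -0.081 with quantile normalization, none of them past the threshold. The number of called genes of the 4 ERAD lists was 33, and 17 without a trend in the variance model, where the cause was not tested. That number was 22 to 39 with 1 library left out, the fewest without low glucose replicate 1. Calls over all genes tested moved too, from 14.7% higher and 16.2% lower to 9.95% and 9.44% without the trend. They were 9.17% and 11.3% without replicate 1, and 16.7% and 17.4% without the control library of 10190154 reads, which gave the 39. With the longest coding transcript as the length, HERPUD1 was at place 3 in control. No direction of the 7 ratios between members changed with a pseudocount of 0.1 or with a library left out. No paired analysis was possible because the labels tie only 2 of the 6 columns to a numbered sample, both of low glucose, so the fit with the replicate number as a block was not run. The small number of reads limits DERL3, at 5 to 8 reads in control.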

Other observations

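Beyond the ERAD genes, the motif search that marked the window of HERPUD1 could be read across all genes, a look that was chosen after the data were seen and is given without a test. Among 17 tested genes with an ERSE in the RefSeq window, 14 were higher in low glucose at an adjusted p under 0.05 in limma and 0 lower, with a median log2 fold change of 0.86, whereas of 12457 tested genes with a window 16.7% were higher and 20.8% lower, with a median of 0.01. The genes named here were chosen after their values were seen. The largest value was that of SYNPO (1.69), an actin-binding protein, and the others include the chaperone genes HSPA5 (1.66), HSP90B1 (1.13) and CALR (0.95), the oxidase ERO1B (1.60), CRELD2 (1.55), and XBP1 (1.33), a transcription factor of the unfolded protein response. CANX (0.19, limma adjusted p = 0.123), which encodes the chaperone calnexin, did not pass.

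Leaving out HERPUD1, which was chosen for its rise, 14 tested genes had an ERSE-II, with a median log2 fold change of 0.12. Of these, 3 were higher (21.4%) and 5 lower (35.7%). Over the 12457 tested genes with a window, the shares were 16.7% and 20.8%. The higher ones were SDF2L1 (2.52), HYOU1 (1.71), an ER chaperone, and NUCB1 (0.37). The lower ones had log2 fold changes of -0.28 (GYS1, glycogen synthase of muscle type) to -0.51 (SHCBP1). A match of these letters does not show that a factor binds, and other windows were not searched.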
